A study of Mus musculus with 16 samples.

Results

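The trophectoderm is the outer epithelium of the blastocyst and gives rise to the placenta, while ES cells derive from the inner cell mass and seldom enter this lineage. In the outer cells of the embryo, TEAD4 with its coactivators YAP1 and WWTR1 switches on Cdx2 and Gata3. OCT4 represses Cdx2 in ES cells, and loss of OCT4 turns them towards trophoblast. The loci of 10 genes of this lineage were described in the accessible regions of mouse ES cells. These genes were Tead4, Cdx2, Gata3, Gata2, Tfap2c, Tfap2a, Elf5, Ets2, Krt8 and Krt18. A region belonged to a gene when its centre lay in the gene body or within 100 kb of an annotated transcription start site (TSS) of the gene. This rule gave 160 of the 81132 regions of the deposited list, or 0.197%.

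The regions come from ATAC-seq, in which the Tn5 transposase inserts sequencing adapters into open chromatin. The 12 libraries were from SBROS cells, a clonal knock-in line made from CGR8 mouse ES cells. In this line both Sox2 alleles carry a SNAP-tag and a single Oct4 allele carries a HALO-tag, beside reporters for SOX1 and BRA. All cells were grown with serum, LIF, CHIR99021 and PD184352, stained for both tags and for DNA, and sorted in G1. The 4 populations, with 3 replicates each, were SHOH (SOX2 high, OCT4 high), SHOL (SOX2 high, OCT4 low), SLOH (SOX2 low, OCT4 high) and SLOL (SOX2 low, OCT4 low). The list merges the regions called in any library and gives a chromosome, a start and an end, with no read count, score or library. Depth is therefore unknown from the list, no replicate error can be attached to a region, and the 4 populations were not compared. A region in the list was open in at least 1 library, and its level is not known.

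Windows of sequence from 7 of the loci serve as examples. Each is up to 300 bp at the centre of a region whose closest TSS belonged to the gene, chosen for holding the most kinds of motif outside UTRs, so the matches shown follow from the choice. Of the 160 regions 67 held none of the motifs (41.9%, 95% Wilson interval 34.5 to 49.6), against 31.8% of the list. The windows are given on the plus strand of mm10, and capitals mark matches to the motifs searched. All motifs were searched as exact letters on both strands. SOX factors were searched as CCATTGT and also as CCTTTGT, and the octamer that OCT4 binds as ATGCAAAT. For naive ES cell factors, ESRRB was searched as AAGGTCA and the KLF family as GGGNGTGG. Among trophectoderm factors, the GATA family was searched as AGATAA, while TEAD proteins were represented by GGAATG, with AP-2 proteins as GCCNNNGGC. The ETS family was searched as CCGGAAGT and also as ACAGGAAG, and finally CDX2 and its relatives were searched as TTTATGG. The Cdx2 window lies at chr5:147304731-147305030 in an intron and holds a SOX match. The Elf5 window at chr2:103435971-103436270, also intronic, holds TEAD, KLF and GATA matches. The Tfap2a window at chr13:40731335-40731630 lies in an exon of a Tfap2a transcript and holds a pair of AP-2 matches. The Tead4 window at chr6:128256267-128256541 is intronic and holds 2 TEAD matches, and such matches were in 6 of the 27 regions of Tead4, near the 22.8% of the list. Intergenic windows followed for Gata2 at chr6:88210233-88210532, with ESRRB and TEAD matches, for Gata3 at chr2:9827742-9828041, with 2 KLF matches, and for Krt18 at chr15:102025320-102025514, with 2 TEAD matches.
Cdx2: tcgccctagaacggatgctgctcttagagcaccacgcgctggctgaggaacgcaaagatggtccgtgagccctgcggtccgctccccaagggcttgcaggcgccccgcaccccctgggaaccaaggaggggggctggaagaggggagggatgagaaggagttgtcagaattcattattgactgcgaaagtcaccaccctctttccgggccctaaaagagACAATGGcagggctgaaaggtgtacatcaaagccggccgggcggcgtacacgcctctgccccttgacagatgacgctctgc
Elf5: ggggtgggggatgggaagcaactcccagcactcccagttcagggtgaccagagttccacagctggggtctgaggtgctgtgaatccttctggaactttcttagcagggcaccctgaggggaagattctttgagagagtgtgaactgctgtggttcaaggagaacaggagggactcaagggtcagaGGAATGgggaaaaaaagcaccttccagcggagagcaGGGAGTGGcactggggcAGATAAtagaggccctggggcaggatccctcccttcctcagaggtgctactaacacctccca
Gata2: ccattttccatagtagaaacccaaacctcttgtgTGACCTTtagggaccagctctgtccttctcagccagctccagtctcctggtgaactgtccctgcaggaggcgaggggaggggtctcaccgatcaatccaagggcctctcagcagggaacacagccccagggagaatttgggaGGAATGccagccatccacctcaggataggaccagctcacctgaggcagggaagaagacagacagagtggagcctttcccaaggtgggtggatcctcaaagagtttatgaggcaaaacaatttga
Gata3: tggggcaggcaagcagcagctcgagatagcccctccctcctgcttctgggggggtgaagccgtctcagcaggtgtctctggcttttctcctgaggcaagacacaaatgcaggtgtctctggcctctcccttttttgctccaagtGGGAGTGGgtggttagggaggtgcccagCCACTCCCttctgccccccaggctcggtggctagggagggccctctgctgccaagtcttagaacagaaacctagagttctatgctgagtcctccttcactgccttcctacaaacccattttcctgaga
Tfap2a: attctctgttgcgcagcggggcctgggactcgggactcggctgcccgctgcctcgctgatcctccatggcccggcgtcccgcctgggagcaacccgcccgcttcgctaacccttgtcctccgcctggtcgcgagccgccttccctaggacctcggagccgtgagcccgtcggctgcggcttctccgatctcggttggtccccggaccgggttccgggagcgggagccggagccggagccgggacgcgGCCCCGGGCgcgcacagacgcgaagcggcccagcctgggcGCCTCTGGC
Tead4: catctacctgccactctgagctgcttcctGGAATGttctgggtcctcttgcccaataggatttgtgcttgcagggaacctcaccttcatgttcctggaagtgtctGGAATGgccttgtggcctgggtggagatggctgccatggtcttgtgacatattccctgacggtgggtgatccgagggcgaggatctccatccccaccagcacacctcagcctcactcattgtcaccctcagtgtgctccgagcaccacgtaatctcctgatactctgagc
Krt18: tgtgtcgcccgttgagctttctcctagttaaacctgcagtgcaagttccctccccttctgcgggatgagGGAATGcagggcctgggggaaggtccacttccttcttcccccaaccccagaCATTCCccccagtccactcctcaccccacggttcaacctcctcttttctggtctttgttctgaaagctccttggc

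All 10 genes had more regions in their windows than the median protein-coding gene counted the same way. The 10 counts ran from 14 to 27 with a median of 16, and the median over 21938 protein-coding genes was 11, with quartiles of 6 and 17. Tead4 had 27 regions and Tfap2c 24, which placed them at percentiles 96.5 and 92.8 of protein-coding genes. The other 8 genes had 14 to 18 regions, between percentiles 62.1 and 78.0. Counts above the median were also common in the other lists, least so among endoderm genes. In naive pluripotency genes 9 of 10 were above 11 regions, with a median of 18, and in genes of the Hippo pathway, which sets YAP1 activity, 8 of 9 were, with a median of 17. Among mesoderm genes 8 of 10 were above 11 regions, with a median of 16, and among endoderm genes 5 of 10, with a median of 11.5. Of 16 other trophoblast genes 11 were above it. Chromosomes differed, with a median of 14 regions per gene on chromosome 6 and 10 on chromosome 2. Among the genes of chromosome 6, Tead4 stood at percentile 89.7 and Gata2, with 15 regions, at percentile 55.0, and whether a gene's surroundings set its count was not tested.

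**Figure D1:**
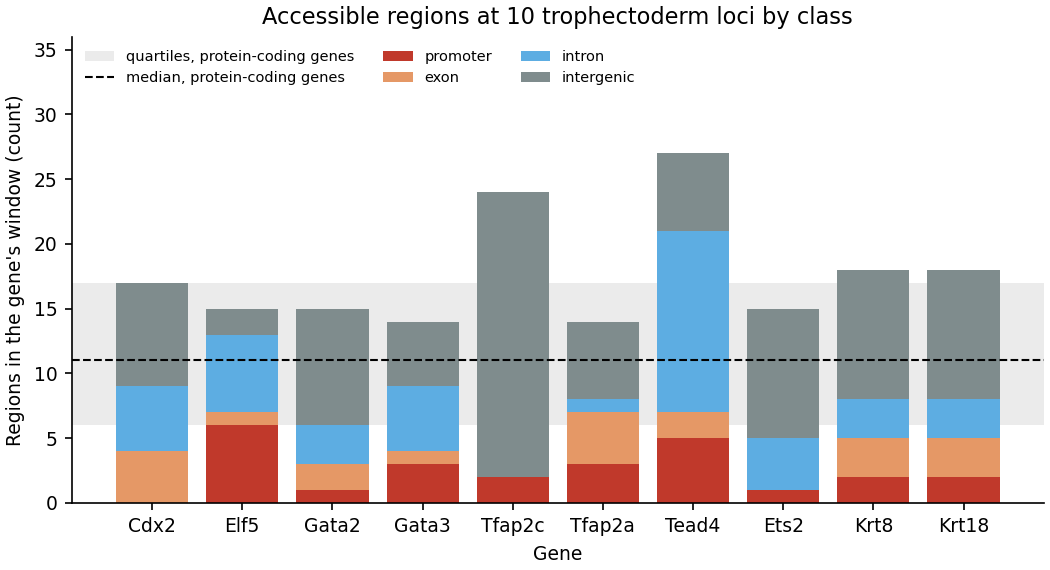
Number of regions in the window of each gene (y axis, count), stacked by the class at the region's centre. The dashed line is the median of 11 over protein-coding genes and the shaded band their quartiles of 6 and 17, and all 10 bars end above the dashed line.

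**Figure D2:**
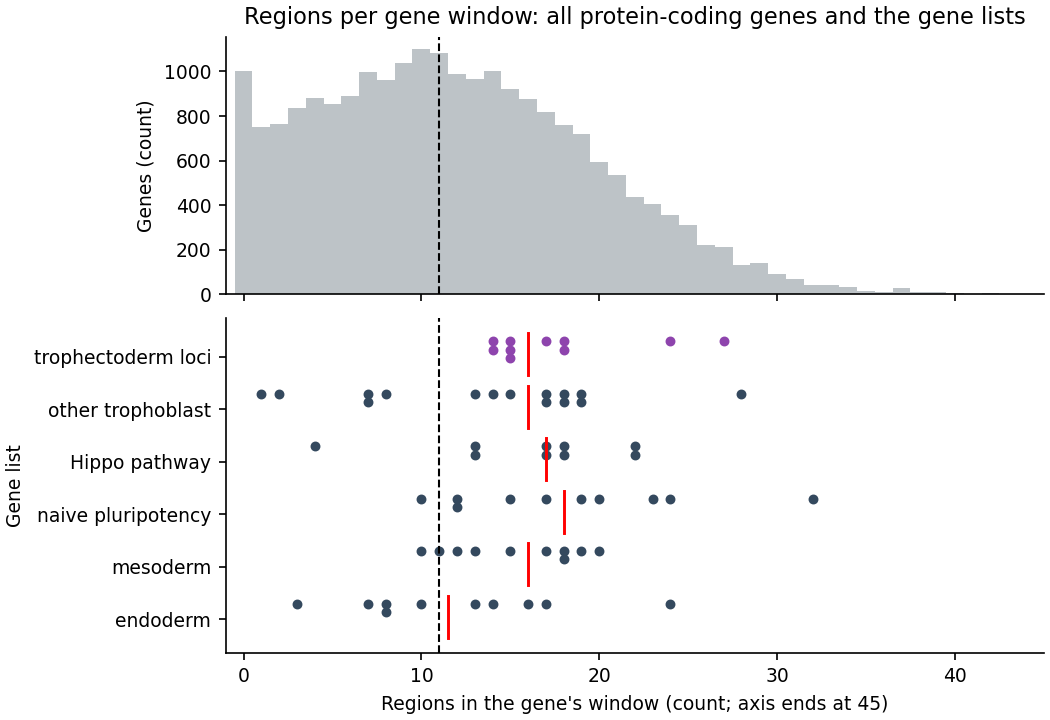
Number of regions per gene window (x axis, count) for all protein-coding genes (upper panel, number of genes) and for the genes of each list (lower panel, 1 point per gene, red line the median of the list). The 10 trophectoderm loci lie between 14 and 27, to the right of the dashed line at the median of 11. So do most genes of the other lists apart from endoderm, where 5 of 10 do, and Fgfr2 with 148 lies beyond the axis.

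Most of these regions were closer to another gene. Of the 160 regions, 60 had a member gene as the closest TSS and 100 had a neighbour. Over the whole list a member was the closest gene to a median of 4.5 regions, and a protein-coding gene to a median of 1. The share that belonged to the gene itself was highest at Tfap2c, with 15 of 24 regions, at Gata3, with 8 of 14, and at Elf5, with 8 of 15. It was lowest at the keratin genes, with 2 of 18 for Krt8 and 3 of 18 for Krt18, and at Cdx2, with 3 of 17. Several of the neighbours were non-coding genes or pseudogenes, and with TSSs of protein-coding genes alone 97 regions had a member as the closest gene. By that rule the share was highest at Tfap2a, with 13 of 14 regions, followed by Tfap2c with 18 of 24. Elf5 then had 11 of 15, Ets2 10 of 15, Tead4 16 of 27, Gata3 8 of 14 and Gata2 7 of 15. Krt8 had 6 of 18, Cdx2 5 of 17 and Krt18 3 of 18.

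By class, the windows had a smaller share of promoter regions and a larger share of intergenic regions than the list as a whole. Promoters, which began 1000 bp before a TSS and ended 100 bp after it, held 23 of the 160 regions (14.4%, 9.77 to 20.6), against 20.96% of all regions. Intergenic regions made up 48.8% (41.1 to 56.4) against 35.2%, and introns 25.6% (19.5 to 32.9) against 35.1%. Exons held 11.3% (7.24 to 17.1) against 8.76%. Among the 60 regions closest to a member the promoter share was 12 of 60 (11.8% to 31.8%), close to that of the list, and intergenic regions made up 46.7% (34.6 to 59.1). These intervals cover counting error only, and regions of the same locus are not independent of each other. The promoter share was 15.8% (11.2 to 21.7) at naive pluripotency loci, 17.5% (11.7 to 25.3) at endoderm loci and 27.5% (20.997 to 35.01) at mesoderm loci. With promoters taken as 500 bp on both sides of a TSS, the share was 22.5% at the trophectoderm loci and 23.6% in the list.

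A promoter region was present at 7 of the 10 genes when its centre had to lie in the promoter, and 57.7% of protein-coding genes had one by that rule. The 3 genes without one, Tead4, Cdx2 and Krt18, each had a region that covered a TSS but was centred a short way into the gene. Counting any overlap with a promoter, all 10 genes had one, against 66.5% of protein-coding genes. A region lay directly over a GENCODE TSS in 9 of the 10 genes, all but Gata2, against 61.4% of protein-coding genes. For each of these counts 1 TSS of a gene was enough, so genes with more annotated TSSs had more chances. Tfap2a had 2 of 9 TSSs covered and Gata3 1 of 6. By RefSeq starts, which were available for 8 of the genes, 6 had a covered start, Gata2 among them, and Elf5 and Tfap2a had none. As a check of the cell type, Pou5f1, the gene of OCT4, had a region over a TSS, and Sox2 had a promoter region but none over its TSS. Nanog, the gene of another pluripotency factor, had neither, although its window held 32 regions. The authors discarded peaks that overlapped ChIP-seq input peaks, so a TSS without a region, as at Nanog, is not shown to be closed, and the part of this filter was not tested.

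**Figure D3:**
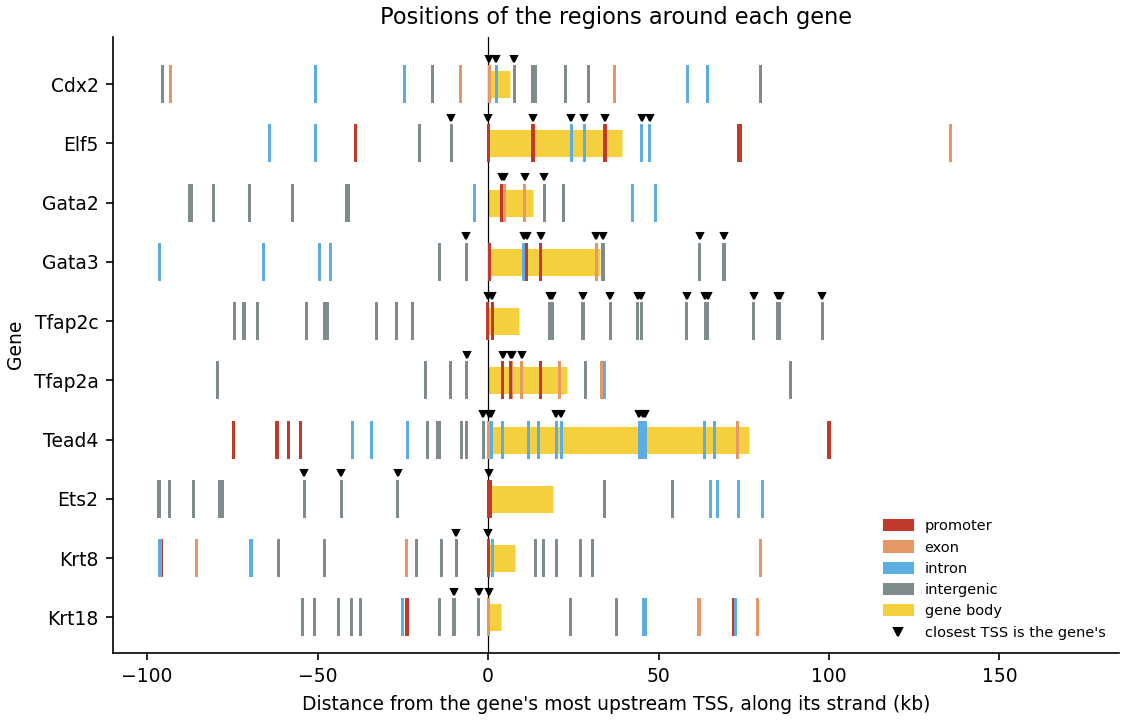
Regions around each gene by distance from its most upstream TSS along its strand (x axis, kb), coloured by class, with the gene body in yellow and a triangle where the closest TSS is the gene's own. Narrow regions are drawn wider than to scale, and the map shows the run of intergenic regions downstream of Tfap2c and the regions inside Tead4.

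Tead4 encodes the DNA-binding partner of YAP1 and acts upstream of Cdx2. It had 4 annotated TSSs on chromosome 6, and a region of 858 bp at chr6:128300193-128301050 covered 3 of them, with its centre 117 bp downstream of the closest. Of the 27 regions, 14 were in introns of Tead4 or a neighbour and 13 lay inside the gene body of 76.5 kb, so Tead4 was the locus with the most regions within the gene. Those whose closest TSS was Tead4 numbered 8. The pseudogene Rpl18-ps2 was the most frequent neighbour, with 5 regions. On the far side of it lay the promoters of Tulp3 and Rhno1, and the widest of the 160 regions, with 1437 bp, was a promoter of Gm10010 at the other end of the window, at chr6:128200102-128201538. An octamer was present in an intergenic region of 364 bp at chr6:128318401-128318764, centred 17759 bp from a Tead4 TSS.

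Cdx2, the caudal-type homeobox factor that keeps Oct4 off in the trophectoderm, had a single TSS on chromosome 5. A region of 952 bp at chr5:147306421-147307372 covered it and was centred 374 bp into the gene, in an exon with UTR sequence. This was the widest of the regions with Cdx2 as the closest TSS. A further 634 bp were open in an intron at chr5:147304565-147305198, and 761 bp beyond the 3′ end at chr5:147299168-147299928. These 3 regions were all that had Cdx2 as the closest TSS. The pancreatic homeobox gene Pdx1 and the microRNA gene Mir7k were closest to 3 regions each. Cdx2 had the widest regions of the 10 loci by the median, 470 bp. An octamer lay in an intron region of 436 bp at chr5:147357539-147357974, centred 50486 bp from the Cdx2 TSS, with a SOX match 58 bp away.

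The GATA factors Gata3 and Gata2 act early in trophoblast and also in blood and other lineages. Gata3 had 14 regions on chromosome 2, of which 8 had it as the closest gene. Its promoter regions were 377 bp at chr2:9878450-9878826, over a TSS with a protein-coding transcript, and 168 bp at chr2:9874470-9874637. Just inside the most upstream TSS lay a region of 922 bp, at chr2:9889047-9889968, which ended 66 bp short of that TSS and whose closest TSS was that of the gene 9230102O04Rik. Among the regions closest to Gata3, the widest outside promoters was 622 bp at chr2:9856005-9856626, beyond the 3′ end. The neighbour Taf3, which encodes a subunit of the general factor TFIID, was closest to 4 regions.

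None of the 4 GENCODE TSSs of Gata2 was covered by a region, while a RefSeq start at position 88198664 was. The region nearest to a TSS, 247 bp in an exon at chr6:88204548-88204794, lay 103 bp from the start of a non-coding transcript inside the gene. A pair of regions flanked the TSS of protein-coding transcripts at position 88198334. A region of 224 bp at chr6:88197794-88198017 was centred 429 bp upstream and another of 266 bp at chr6:88198582-88198847 was centred 380 bp downstream, in an exon. The most upstream TSS, at position 88193891, had its nearest region 3774 bp away. That promoter was rich in CpG sites, and the 1000 bp around the TSS had a GC content of 68.0% and an observed to expected CpG ratio of 0.766. Only 4 of 15 regions had Gata2 as the closest TSS, the widest outside promoters being 369 bp at chr6:88210199-88210567. Far upstream, Mir6376 was closest to 5 regions, among them the 881 bp at chr6:88123461-88124341.

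The AP-2 factors Tfap2c and Tfap2a bind the same motif, and Tfap2c acts in trophoblast and in germ cells. Tfap2c had 2 promoter regions, 290 bp at chr2:172549317-172549606 and 734 bp at chr2:172550497-172551230, which together covered 5 of 6 TSSs. The other 22 of its 24 regions were intergenic, and none was in an exon or intron of any gene. Downstream of the gene lay 13 regions, all with Tfap2c as the closest TSS, the last centred 95514 bp from it. They included 954 bp at chr2:172567903-172568856 and the widest, 1096 bp at chr2:172576948-172578043. Over the whole list, 19 regions had Tfap2c as the closest gene, the percentile 99.7 of protein-coding genes, and among the genes of the 6 lists Esrrb alone had as many. Upstream, Gm14303 was closest to 6 regions.

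Tfap2a, which acts in neural crest and skin as well as in trophoblast, had 14 regions on chromosome 13 and 9 TSSs, of which 2 were covered. Its promoter regions were narrow, 155 bp at chr13:40731667-40731821 and 327 bp at chr13:40733906-40734232. The TSS at position 40738376, the most upstream, was 4144 bp from the nearest region. Of the 14 regions 5 had Tfap2a as the closest TSS, and the widest of these outside promoters was 522 bp at chr13:40744383-40744904. With protein-coding genes alone as neighbours the number was 13, and no other protein-coding gene had a TSS in the window. The non-coding gene Gm9979 was closest to 3 regions.

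Elf5 and Ets2 are ETS factors that maintain trophoblast stem cells. Elf5 had the promoter with the fewest CpG sites among the TSSs that were covered, with an observed to expected ratio of 0.193 in the 1000 bp around the upstream TSS, against 0.688 to 0.917 at the covered TSSs of Tfap2c. A region of 372 bp at chr2:103411574-103411945 nevertheless covered that TSS and the next, and a region of 300 bp at chr2:103424729-103425028 covered an internal TSS. A further promoter region of 438 bp, at chr2:103445771-103446208, lay upstream of a TSS of a non-coding transcript. Of 15 regions 8 were closest to Elf5, the widest outside promoters being the intronic 561 bp at chr2:103435841-103436401. Cat, the gene of catalase, and Gm37220 were the most frequent neighbours, with 2 regions each. An octamer lay in 615 bp at chr2:103360657-103361271, centred 50724 bp upstream, with a SOX match 47 bp away.

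Ets2 had a wide promoter region and few others nearby. Its promoter region of 1405 bp at chr16:95701696-95703100 was the widest promoter region of any member and covered 3 of 6 TSSs. It was the only region inside the gene body of 18.98 kb, and only 2 of 15 regions lay within 20 kb of an Ets2 TSS. The next on the upstream side was centred 26548 bp away. Of the 15 regions 10 were intergenic and 4 had Ets2 as the closest TSS, the widest of these outside promoters with 387 bp at chr16:95647937-95648323. Erg, another ETS gene, was closest to 5. An octamer was found in 748 bp of intron at chr16:95767084-95767831, 49723 bp downstream.

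Krt8 and Krt18 encode the keratins that pair in simple epithelia and mark the trophectoderm. They are neighbours on chromosome 15, and their windows shared 17 regions of 18 each, so their counts are not independent. Without Krt18, the other 9 genes had a median of 15 regions. The Krt8 promoter had 351 bp open at chr15:102004221-102004571 and Krt18 had 624 bp at chr15:102028006-102028629, which covered its TSS and was centred 137 bp into the gene. The Krt18 region held 4 kinds of motif, SOX, TEAD, AP-2 and KLF, and the Krt8 promoter region held none. Between the genes lay 3 further regions, of which a single one had Krt8 as the closest TSS, with 318 bp at chr15:102013674-102013991. Eif4b, a translation initiation factor gene, and Gm36026 were closest to 4 regions each. An octamer lay in 570 bp at chr15:101973565-101974134, 30633 bp from the Krt8 TSS.

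Region widths at the loci were close to those of the list. The median was 363.5 bp, with a 95% interval from order statistics of 318 to 387 bp, and the median of the list was 355 bp. By class the picture was mixed. The 23 promoter regions had a median of 372 bp against 600 bp over all promoter regions, and intergenic regions 361 bp against 321 bp. Regions over 1000 bp were 5 of 160 (3.13%, 1.34 to 7.11) and 4.75% of the list. Soft-masked repeats took up a median of 7.69% of the bases of a region, against 9.12% in the list.

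**Figure D4:**
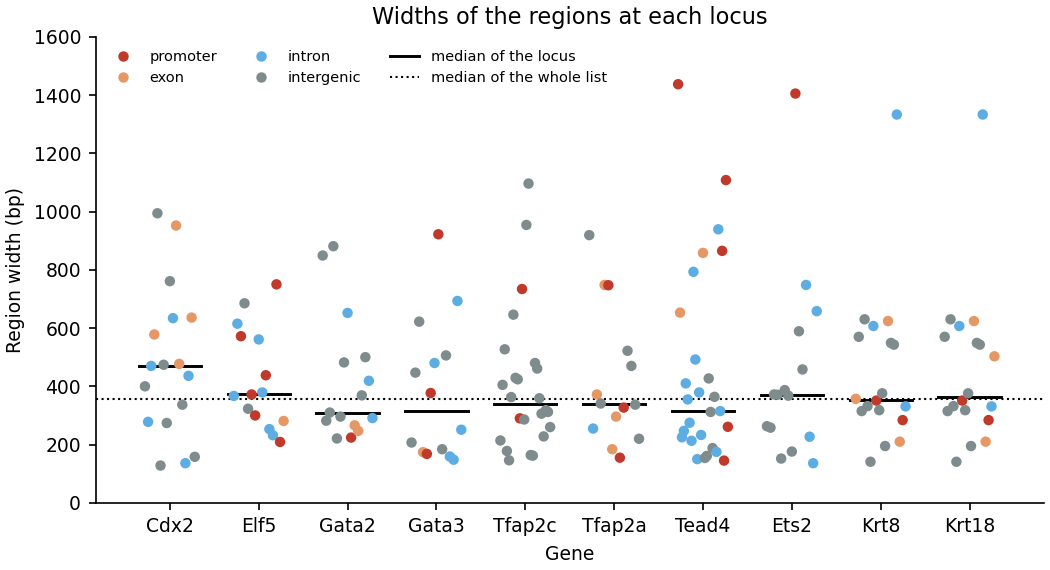
Width of each region (y axis, bp) at each locus, coloured by class, with the median of the locus as a solid line and that of the whole list, 355 bp, as a dotted line. Medians run from 310 bp at Gata2 to 470 bp at Cdx2, and the wide points at Tead4 and Ets2 include the promoters of 1437 bp and 1405 bp.

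SOX and octamer matches were about as frequent at these loci as in the list. A SOX match was present in 23 of 160 regions (14.4%, 9.77 to 20.6), against 16.02% of the list. The list's share at the same widths and GC contents as the loci, averaged over 5 by 5 bins, was 14.8%. An octamer was present in 5 regions (3.13%, 1.34 to 7.11), against 2.66%. None of the 5 was closest to a member gene, and none had the octamer within 10 bp of a SOX match, an arrangement that 36 regions of the list had. SOX matches were most numerous at Tfap2c, in 6 of 24 regions, and Gata3 had none in 14. These values do not tell whether SOX2 or OCT4 is bound, since a match is only a run of letters.

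The combined share of trophectoderm factor motifs was lower over all 160 regions than in the list, and the difference was smaller outside promoters and near the genes. Any of GATA, TEAD, AP-2, ETS and CDX was present in 65 of 160 regions (40.6%, 33.3 to 48.4), against 50.5% of the list and 50.7% of it at the same widths and GC contents. The naive pluripotency loci had nearly the same share, 40.8% (33.9 to 48.0), the mesoderm loci 47.1% (39.3 to 54.9) and the endoderm loci 53.3% (44.4 to 62.02). GATA matches were in 7.5% (4.34 to 12.7) against 13.5% of the list, which was 11.6% at the same widths and GC contents. ETS matches were in 4.38% (2.14 to 8.75) against 7.46% and CDX matches in 1.25% (0.343 to 4.44) against 3.41%, so the intervals of both included the list's share. TEAD matches were in 20.6% (15.1 to 27.5) against 22.8% and AP-2 matches in 21.3% (15.6 to 28.2) against 20.4%. Outside promoters the combined share was 40.9% against 46.7% of the list, and in windows of 50 kb it was 44.1%. Per length the rate was 1.65 sites per kb at the loci and 1.93 in the list. In the 60 regions closest to a member the share was 43.3% (31.6 to 55.9), against 48.3% of the list at their widths and GC contents, and the rate was 1.93 sites per kb, the same as in the list. Single motifs in these 60 regions lay on both sides of the list's share. TEAD matches were in 28.3% (18.5 to 40.8) against 20.5% at their widths and GC contents, ETS matches in 1.67% (0.295 to 8.86) against 7.46% and CDX matches in none against 2.51%, and each interval included the list's share. ESRRB and KLF are factors of naive ES cells. Over all 160 regions ESRRB matches were in 10.0% against 10.9% of the list and KLF matches in 22.5% against 22.8%. Between loci the combined share varied, from 2 of 15 regions at Ets2 to 11 of 18 at Krt8. AP-2 matches were found in 6 regions each at Cdx2, Gata2 and Tfap2a and in none at Ets2.

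**Figure D5:**
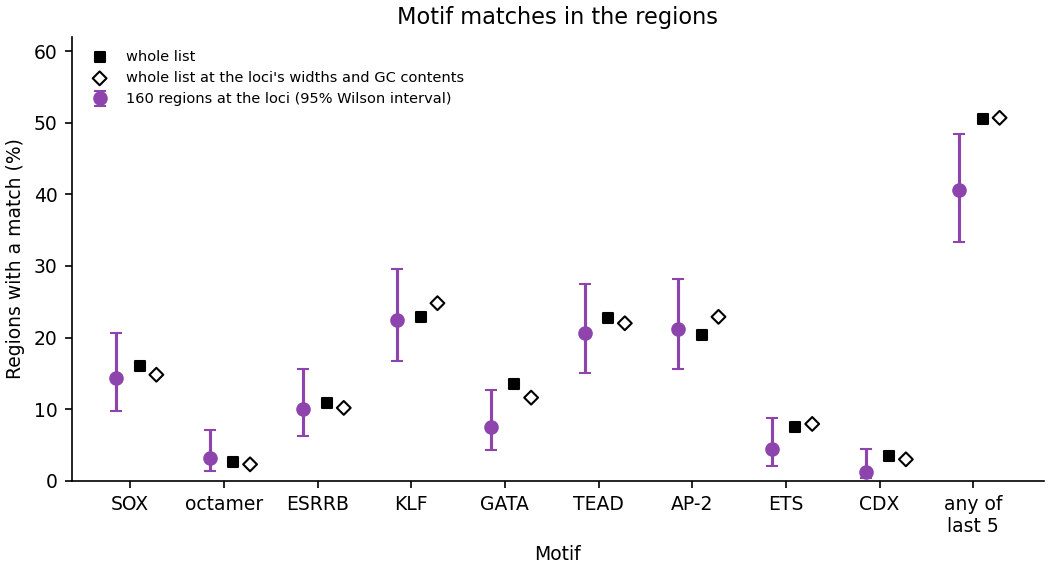
Share of regions with a match (y axis, percent) for each motif and for any of GATA, TEAD, AP-2, ETS and CDX, at the loci (circles with 95% Wilson intervals), in the whole list (squares) and in the list at the loci's widths and GC contents (diamonds). The combined share of 40.6% at the loci lies below the 50.5% of the list, while SOX and the octamer lie close to it.

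Other genes of the trophoblast varied more widely. Of 16 such genes, 10 had a region over a TSS, a share near the 61.4% of all protein-coding genes, and the median was 16 regions per window with a range from 1 to 148. The highest count belonged to Fgfr2, a receptor for the FGF4 that sustains trophoblast stem cells, whose annotated transcripts give a window of 3155 kb. Eomes, a T-box factor of trophoblast stem cells, had 19 regions, and Klf5, needed for the early trophectoderm, also 19. Cdh1, the gene of E-cadherin, which ES cells express, had 18. Genes of the later placenta differed among themselves. Ascl2 had 18 regions and Dlx3 had 17, both with a covered TSS. Tpbpa, a marker of the spongiotrophoblast, had 1 region, Prl3d1, a placental lactogen of giant cells, had 2, and neither had a region over a TSS. Gcm1, the factor of labyrinth syncytiotrophoblast, had 17 regions in its window but none over its TSS, and Hand1, a giant cell factor, had 15 with none over a TSS. In the Hippo pathway all 9 genes had a region over a TSS, Yap1 with 22 regions and Amot, on the X chromosome, with 4. The number was 8 of 10 for naive pluripotency genes, 7 of 10 for endoderm genes and 4 of 10 for mesoderm genes, beside the same 61.4%.

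Promoter windows from RefSeq (GRCm38.p6, from 250 bp before to 50 bp after a start) were also compared with the list. Entries matched 8 of the 10 genes with 11 windows, and regions overlapped 8 of these, at least 1 for each matched gene. Over all RefSeq windows the overlapped share was 44.9%. The start itself was covered in 6 of the 11 windows, and in 40.8% of all RefSeq windows. The windows without a region were those of the upstream start of Gata2, an upstream start of Tfap2a and the internal start of Elf5. The other window of Gata2 was overlapped over 132 bp by the region of 266 bp, which covered its start.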

How the data were processed

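Per the labels and the study's methods, the authors aligned reads to mm10 with STAR (2.5.3a), removed duplicates with Picard, called peaks per library with MACS2 (2.1.1.20160309) on paired fragments, merged them with BEDOPS and discarded peaks that overlapped ChIP-seq input peaks. No shift for the Tn5 insertion is named. The deposited list holds 3 columns, chromosome, start and end. The 4 ChIP-seq samples were not analysed here. Regions were placed on GENCODE M21 with Python (3.11.15), numpy (2.4.6) and pandas (2.3.3), by their centre, as promoter, exon, intron or intergenic in that order. Sequence was read with pysam (0.24.0), a window chosen at Tfap2c is not reported here, and no region passed a chromosome end. Intervals are 95% Wilson intervals, and no test was made. Scripts were tested on simulated data. Members and lists were chosen with earlier results of these data known. Named were all members, genes of 6 lists, each member's most frequent neighbour, and the regions in its promoters, its widest other region and those with an octamer. Further regions and the genes at them were chosen after their values were seen.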

Additional observations from a re-analysis of the deposited data

How the results depend on the processing

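Of 30 alternatives to 8 results, 25 left a count within 1.5 times its value or a share or median within its 95% interval, and 5 did not. A window of 20 kb gave 72 regions in place of 160, as its smaller size implies. The promoter share of 14.4% became 22.5% with 500 bp and 43.8% with 5 kb on both sides of a TSS, and that of the whole list became 23.6% and 45.7%. Searching only the 200 bp around the centre lowered the share with a trophectoderm factor motif from 40.6% to 21.9%, and that of the whole list from 50.5% to 31.5%, since less sequence was searched. With the closest TSS of protein-coding genes alone, 97 regions in place of 60 belonged to a member. The number of genes with an accessible promoter ranged from 6, with protein-coding transcripts alone, to 10, with any overlap. No paired analysis was possible because the list holds no value per library. Without a score, a stricter threshold could be approached only by width, and 135 regions of 200 bp or wider were left.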
